A study of Mus musculus with 12 samples.

Results

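A group of 8 genes that act in coagulation and fibrinolysis at the vessel wall was followed through RNA sequencing of perfused mouse hearts. They were chosen by name, with earlier results of these data known, as Plat, Plau, Plaur, F3, Thbd, Tfpi, Procr and Thbs1. All 8 of 8 were found among the 52858 genes of the files and were among the 15240 tested. The study compared adult male C57BL/6J mice with Slit2-Tg mice, which carry a human Slit2 cDNA (Slit2 is a secreted guidance protein that binds Robo receptors) behind the CMV promoter, a viral promoter that is not restricted to 1 cell type. The transgene was made in oocytes of C57 × CBA hybrids, and the C57BL/6J hearts carried no transgene. All hearts were excised and perfused ex vivo on a Langendorff apparatus with buffer in place of blood. One arm was perfused without interruption (C57-non-IR, Slit2-non-IR) and the other went through global no-flow ischemia followed by reperfusion (IR, hence C57-IR and Slit2-IR), with 3 libraries in each of the 4 groups. The labels give the genotype of each library, and its treatment was read from the letters of its title against the groups of the study. The labels call the samples independent without saying how each heart was obtained, so p-values measure the spread between these libraries. Levels are FPKM, which corrects the fragments of a gene for its length and for the size of the library, and values of 3 libraries are listed in the order of replicates 1, 2 and 3.

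The endothelium keeps blood fluid by balancing clotting against clot removal. Tissue factor (F3) starts coagulation on cells outside the bloodstream, and tissue factor pathway inhibitor (Tfpi) blocks that start. Thrombin that binds thrombomodulin (Thbd) stops making fibrin and instead activates protein C, which the endothelial protein C receptor (Procr) presents to it. Tissue plasminogen activator (Plat) and urokinase (Plau) convert plasminogen to plasmin, which digests fibrin, and the urokinase receptor (Plaur) holds urokinase at the cell surface. Thrombospondin-1 (Thbs1) is a matrix glycoprotein of platelets and vessel wall cells that binds Cd36 and Cd47 and can activate TGF-beta.

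The libraries held 16601154 to 24841291 reads on genes, recovered from the FPKM steps, with a median of 21010128.5. Cardiomyocyte markers (6 of 6 found) summed to between 12111 and 18519 FPKM and endothelial markers (8 of 8 found) to between 229 and 381 FPKM, with none at 0 in all libraries of a group, as fits the labelled tissue. Endothelial sums were 305 to 374 FPKM in C57-non-IR, 229 to 381 FPKM in C57-IR, 236 to 323 FPKM in Slit2-non-IR and 238 to 358 FPKM in Slit2-IR hearts, so the groups overlapped. Single markers went different ways within this sum. In C57BL/6J hearts Egfl7 (34.99 to 50.9 FPKM without IR, 21.1 to 32.5 with IR) and Eng (64.2 to 85.1 and 40.9 to 61.1) were lower in all IR libraries. The C57BL/6J groups did not overlap, in either direction, in 13.8% of all tested genes. Cldn5 averaged 33.5 FPKM without and 78.1 FPKM with IR. None of the 8 markers passed the test in any IR comparison (limma), with Eng and Cldn5 at an unadjusted p under 0.05 over both genotypes. Red blood cell markers summed to at most 49.0 FPKM and neutrophil markers to at most 1.39 FPKM, with Ly6g at 0 in every library. Platelet markers summed to between 19.7 and 40.7 FPKM, and their groups overlapped too. Nearly all of this sum was Pf4 (18.5 to 39.3 FPKM), and the next highest marker, Gp1ba, reached at most 0.851 FPKM. The platelet sum thus rests on 1 gene. Smooth muscle (66.7 to 147 FPKM), fibroblast (98.5 to 193 FPKM) and macrophage sums (98.9 to 226 FPKM) overlapped between IR and non-IR hearts of either genotype. Markers of tissues outside the heart muscle were low but uneven. Adipocyte markers summed to at most 0.761 FPKM in C57-non-IR hearts, to 0.0916, 11.5 and 14.9 FPKM in the 3 C57-IR libraries and to between 0.590 and 8.20 FPKM in Slit2-Tg hearts. Lung epithelium markers summed to 0.0582, 9.16 and 10.8 FPKM in C57-IR hearts and to between 0.0597 and 12.2 FPKM in the non-IR hearts, with at most 0.173 FPKM in Slit2-IR hearts. In such whole-tissue libraries, fewer cells of a type and less RNA per cell cannot be told apart. C57-IR replicate 1 had the lowest endothelial, macrophage, red blood cell and neutrophil sums of all libraries, and Slit2-IR replicate 1 had an atrial marker sum of 1739 FPKM, where the highest of the other libraries had 243. Replicate 1 of each group had the lowest macrophage, fibroblast and platelet sums of its 3 libraries and the highest cardiomyocyte sum. Calls over both genotypes that changed without C57-IR replicate 1 or without Slit2-IR replicate 1 are given for that fit. Within a genotype, changed calls are given mainly as counts. Mouse Slit2 was listed between 0.0847 and 0.813 FPKM in all libraries, and since the transgene is a human cDNA, this does not check the genotype labels.

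The 8 genes are protein-coding and lie on 5 chromosomes of GRCm38. The fibrinolytic genes are Plat (ENSMUSG00000031538, chr8:22757727-22782844, plus strand), Plau (ENSMUSG00000021822, chr14:20836660-20843385, plus strand) and Plaur (ENSMUSG00000046223, chr7:24462484-24475968, plus strand). F3 is ENSMUSG00000028128 at chr3:121723537-121735048 on the plus strand. The remaining 4 share chromosome 2, namely Tfpi (ENSMUSG00000027082, 84432855 to 84476775, minus strand), Thbs1 (ENSMUSG00000040152, 118111876 to 118127133, plus strand), Thbd (ENSMUSG00000074743, 148404466 to 148408188, minus strand) and Procr (ENSMUSG00000027611, 155751117 to 155755471, plus strand). Thbd is a gene of 1 exon, while the longest coding transcript of Thbs1 has 22 exons, that of Plat 14, of Plau 11, of Tfpi 8, of Plaur 7, of F3 6 and of Procr 4. The counts cover whole genes. Thbs1 overlaps an unnamed gene model (Gm29233) on the opposite strand, which was listed at 0, and no other member overlaps a gene.

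Promoter sequence from RefSeq (build GRCm38.p6) was matched for 4 of the 8 genes, and is shown because it sets a pair of genes that rose with IR beside a pair that did not. The windows ran from 250 bases before to 50 bases after each start, and the bases printed are those that lie before the start both in RefSeq and in the files. The capitals mark the AP-1 motif TGACTCA on either strand, the site bound by Fos and Jun proteins. Plaur and Procr are the pair that rose, and F3 and Tfpi the pair that did not pass the test.
Plaur, chr7:24462233-24462482, plus strand: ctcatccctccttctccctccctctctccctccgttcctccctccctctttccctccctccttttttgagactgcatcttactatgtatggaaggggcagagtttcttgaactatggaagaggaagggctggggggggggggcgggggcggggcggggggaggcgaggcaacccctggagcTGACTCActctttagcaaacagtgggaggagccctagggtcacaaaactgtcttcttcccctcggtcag
Procr, chr2:155750967-155751116, plus strand: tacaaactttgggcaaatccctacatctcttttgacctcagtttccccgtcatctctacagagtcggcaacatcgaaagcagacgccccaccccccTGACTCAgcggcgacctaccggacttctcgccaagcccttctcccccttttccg
F3, chr3:121723287-121723536, plus strand: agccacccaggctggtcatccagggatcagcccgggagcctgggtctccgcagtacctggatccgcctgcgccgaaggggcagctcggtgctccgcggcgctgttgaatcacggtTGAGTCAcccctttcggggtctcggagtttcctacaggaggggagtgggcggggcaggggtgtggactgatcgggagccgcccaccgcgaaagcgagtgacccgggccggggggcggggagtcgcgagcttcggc
Tfpi, chr2:84476776-84477009, minus strand: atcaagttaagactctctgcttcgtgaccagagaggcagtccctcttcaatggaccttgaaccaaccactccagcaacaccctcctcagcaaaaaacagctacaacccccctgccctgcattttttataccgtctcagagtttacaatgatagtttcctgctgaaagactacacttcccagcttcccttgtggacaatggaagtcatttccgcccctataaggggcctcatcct
The motif was present once in Plaur, once in Procr and once in F3, with its first base at -69, -154 and -135 from the RefSeq start, and was not found in Tfpi. Of all 32851 promoter windows of this length, 5.20% held it. Its presence did not separate the genes that rose from F3. The CRE motif TGACGTCA, held by 1.79% of windows, the heat shock element GAANNTTC, held by 7.86%, the kappa-B motif, held by 4.51%, and the CArG box of serum response factor, held by 1.63%, were found in none of the 4. The GC box GGGCGG, held by 35.7% of windows, occurred 3 times in Plaur, 3 times in F3 and once in Tfpi, and the TATA box TATAAA, held by 13.6%, once in F3 after its start and once in Tfpi. All motifs were searched on both strands, and a match is not a bound site.

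Without ischemia, the anticoagulant receptor Thbd was the most abundant of the 8 genes and the protein C receptor Procr the least. In C57-non-IR hearts the order of mean levels was Thbd (34.6 FPKM), Tfpi (11.5), Thbs1 (9.17), F3 (7.61), Plat (3.63), Plau (3.12), Plaur (1.67) and Procr (0.907), and Slit2-non-IR hearts had the same order. In C57-non-IR hearts the libraries of Thbs1 overlapped those of both its neighbours, as did Plat and Plau, whereas the other neighbours in this order did not overlap. IR rearranged the order. Thbs1 came first at a mean of 64.3 FPKM in C57-IR and 71.3 FPKM in Slit2-IR hearts, above Thbd at 48.2 and 38.6 FPKM, and Plaur moved from next to last up to just above Tfpi in C57-IR (13.97 FPKM) or just below it in Slit2-IR hearts (10.5 FPKM). The libraries of Thbs1 and Thbd overlapped in C57-IR and not in Slit2-IR hearts, and Procr was last in every group.

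**Figure D1:**
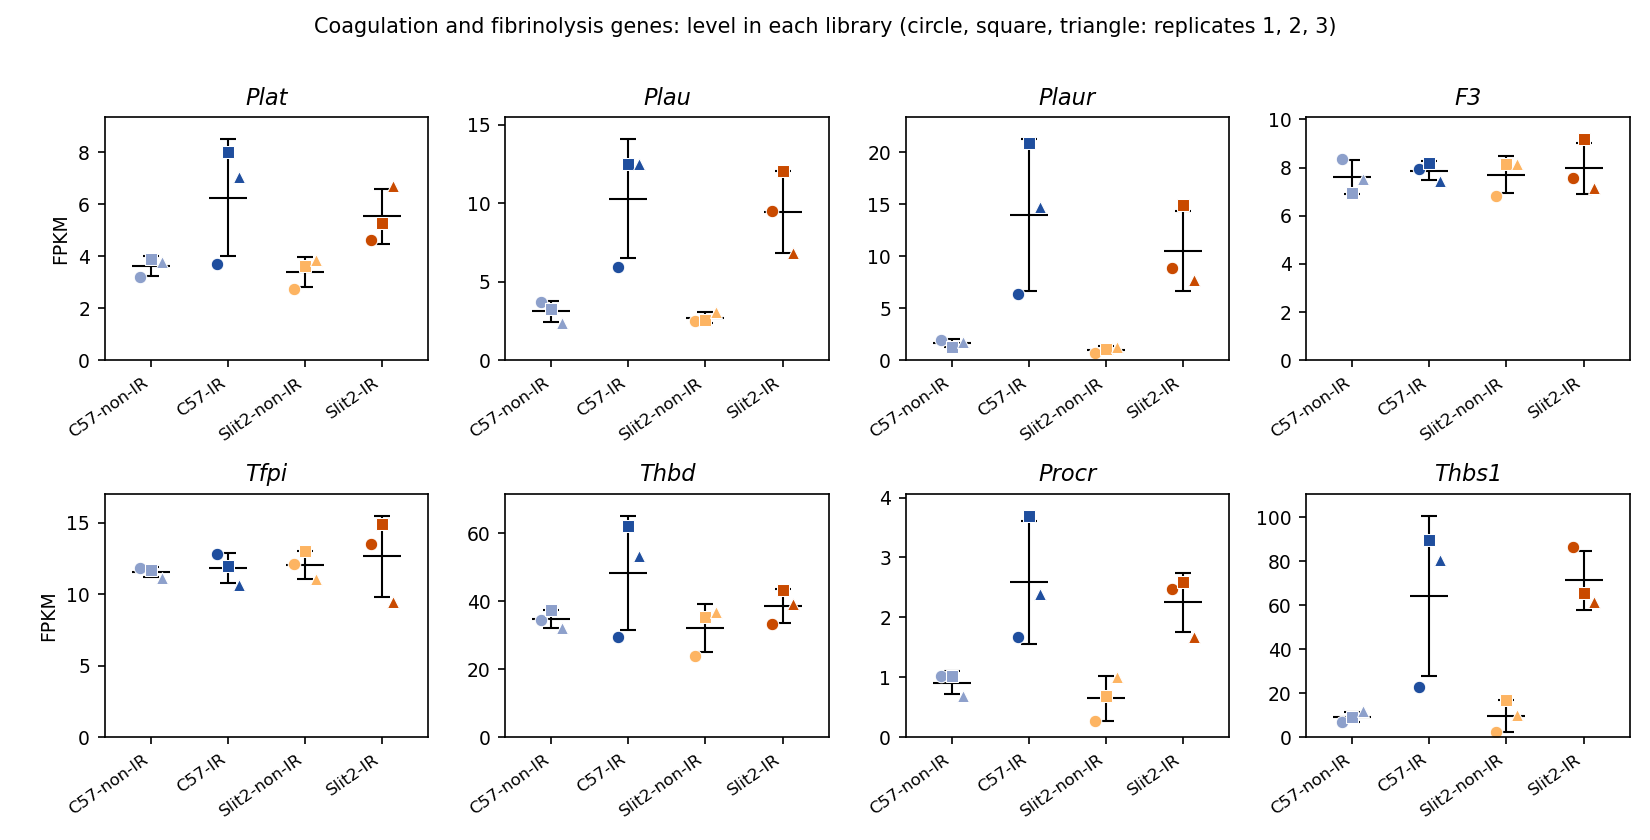
Level of each gene in FPKM (linear axis from 0) in every library of the 4 groups, with the mean as a bar and the SD as whiskers (n = 3 per group). All 6 IR libraries of Plau, Plaur, Procr and Thbs1 lie above all 6 non-IR libraries, while those of F3 and Tfpi lie at the same height.

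Urokinase and its receptor rose with IR in both genotypes. Plaur measured 1.997, 1.27 and 1.74 FPKM in C57-non-IR and 6.37, 20.8 and 14.7 FPKM in C57-IR hearts. In Slit2-Tg hearts it measured 0.681, 1.09 and 1.30 FPKM without IR and 8.87, 14.9 and 7.75 FPKM with IR. The lowest IR library was thus more than any non-IR library, and the ratio of mean levels was 8.35 in C57BL/6J and 10.3 in Slit2-Tg hearts. On the scale of log2(FPKM + 1) the mean IR effect over both genotypes was 2.41 ± 0.24 (SE, limma, adjusted p = 0.000844), the 14th smallest p-value of the 15240 genes. Plau measured 3.70, 3.29 and 2.37 FPKM in C57-non-IR and 5.93, 12.5 and 12.5 FPKM in C57-IR hearts. It measured 2.48, 2.55 and 3.10 FPKM in Slit2-non-IR and 9.53, 12.04 and 6.84 FPKM in Slit2-IR hearts. Again no IR library reached down to the non-IR libraries, with a ratio of means of 3.30 and 3.49 in the 2 genotypes and a mean IR effect of 1.44 ± 0.18 (log2, SE, limma, adjusted p = 0.00244). These 2 genes also passed the test within each genotype, with adjusted p-values (limma) of 0.0230 for Plaur and 0.0487 for Plau in C57BL/6J and of 0.0181 and 0.0403 in Slit2-Tg hearts. These calls within a genotype were not stable. That of Plau was lost in 13 of 20 alternatives in C57BL/6J and 10 of 20 in Slit2-Tg hearts, and that of Plaur in 7 and 6 of 20, whereas both passed in all 19 alternatives over both genotypes. Without Slit2-IR replicate 1 the Slit2-Tg effects were 2.56 for Plaur (limma, adjusted p = 0.0771) and 1.45 for Plau (limma, adjusted p = 0.158).

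The other plasminogen activator moved less. Plat, the endothelial activator, measured 3.20, 3.91 and 3.77 FPKM in C57-non-IR and 3.71, 7.99 and 7.04 FPKM in C57-IR hearts. It measured 2.76, 3.61 and 3.85 FPKM in Slit2-non-IR and 4.63, 5.28 and 6.70 FPKM in Slit2-IR hearts. The Slit2-Tg groups did not overlap, as was the case with IR higher in 8.65% of all tested genes. C57-IR replicate 1 lay among the non-IR libraries, and the mean IR effect of 0.58 ± 0.15 (log2, SE) did not pass the test (limma, adjusted p = 0.0686). Without C57-IR replicate 1, the lowest IR library, it was 0.72 and passed (limma, adjusted p = 0.00345). Leaving out the lowest IR library can only raise the effect. Over all fits without 1 library the effect ran from 0.49 to 0.72 (limma, adjusted p from 0.00345 to 0.158).

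Tissue factor and its inhibitor stayed at the level of the non-IR hearts. F3 measured 8.36, 6.93 and 7.52 FPKM in C57-non-IR, 7.96, 8.20 and 7.45 FPKM in C57-IR, 6.83, 8.15 and 8.14 FPKM in Slit2-non-IR and 7.58, 9.17 and 7.16 FPKM in Slit2-IR hearts. Tfpi measured 11.8, 11.7 and 11.1 FPKM in C57-non-IR, 12.8, 11.997 and 10.7 FPKM in C57-IR, 12.1, 12.99 and 11.03 FPKM in Slit2-non-IR and 13.5, 14.9 and 9.48 FPKM in Slit2-IR hearts. In both genes the 4 groups overlapped. The mean IR effect was 0.04 on the log2 scale for each, with a 95% confidence interval from -0.13 to 0.21 for F3 and from -0.18 to 0.26 for Tfpi (limma, adjusted p = 0.869 and 0.917). The intervals thus leave room for changes of that size and not for one like that of Plau. The level of F3 relative to Tfpi, on a log2 scale, was -0.61 ± 0.13 (SD, n = 3) in C57-non-IR, -0.58 ± 0.09 in C57-IR, -0.64 ± 0.19 in Slit2-non-IR and -0.65 ± 0.22 in Slit2-IR hearts. IR shifted this ratio by 0.01 (two-sided exact permutation test within genotype, 400 relabelings, p = 0.885), less than the spread between replicates.

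Of the endothelial receptors for thrombin and protein C, Procr passed the test over both genotypes and Thbd did not. Their 95% confidence intervals overlapped (from -0.04 to 0.72 for Thbd and from 0.60 to 1.27 for Procr). The difference between them was not tested. Thbd measured 34.4, 37.4 and 32.0 FPKM in C57-non-IR and 29.5, 62.0 and 53.2 FPKM in C57-IR hearts. It measured 24.0, 35.4 and 36.7 FPKM in Slit2-non-IR and 33.2, 43.3 and 39.2 FPKM in Slit2-IR hearts. IR and non-IR libraries overlapped, and the mean IR effect was 0.34 ± 0.17 (log2, SE, limma, adjusted p = 0.381). Without C57-IR replicate 1, which was the lowest of the IR libraries, it was 0.50 (limma, adjusted p = 0.0473). Leaving out the lowest IR library can only raise the effect. Over all fits without 1 library the effect ran from 0.24 to 0.50 (limma, adjusted p from 0.0473 to 0.655). Procr measured 1.01, 1.03 and 0.683 FPKM in C57-non-IR and 1.66, 3.69 and 2.39 FPKM in C57-IR hearts. It measured 0.261, 0.683 and 1.01 FPKM in Slit2-non-IR and 2.47, 2.60 and 1.68 FPKM in Slit2-IR hearts. Every IR library of Procr was above every non-IR library, at a ratio of mean levels of 2.85 and 3.45 in C57BL/6J and Slit2-Tg hearts. Its mean IR effect was 0.93 ± 0.15 (log2, SE, limma, adjusted p = 0.00748), on 11 to 148 reads per library. Within a genotype Procr did not pass (limma, adjusted p = 0.126 in C57BL/6J and 0.0747 in Slit2-Tg hearts). In C57BL/6J hearts it passed without C57-IR replicate 1, its lowest IR library (limma, adjusted p = 0.037). Over all fits without 1 library this adjusted p ran from 0.037 to 0.443 (limma). The added 1 FPKM compresses the change of so low a gene, and with 0.1 added in its place the effect was 1.56 (limma, adjusted p = 0.0101).

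Thrombospondin-1 had the largest IR effect of the 8 genes on this scale and the widest spread. Thbs1 measured 6.96, 8.90 and 11.6 FPKM in C57-non-IR and 22.7, 89.6 and 80.6 FPKM in C57-IR hearts. It measured 2.14, 16.7 and 9.99 FPKM in Slit2-non-IR and 86.6, 65.7 and 61.4 FPKM in Slit2-IR hearts. The lowest IR library, C57-IR replicate 1, was still above the highest non-IR library. The mean IR effect was 2.78 ± 0.43 (log2, SE, limma, adjusted p = 0.00523), with effects of 2.48 in C57BL/6J (adjusted p = 0.120) and 3.08 in Slit2-Tg hearts (adjusted p = 0.0539). In a fit that blocked on the replicate number the effect of 3.08 passed the test (limma, adjusted p = 0.0215), although in Thbs1 itself same-numbered Slit2-Tg hearts deviated from their group means in opposite directions in all 3 pairs. The C57BL/6J effect rose to 3.11 and passed without C57-IR replicate 1 (limma, adjusted p = 0.0227). Over all fits without 1 library it ran from 2.14 to 3.11 (limma, adjusted p from 0.0227 to 0.451). Without Slit2-IR replicate 1 the Slit2-Tg effect was 2.93 (limma, adjusted p = 0.189) and the mean effect over both genotypes 2.71 (limma, adjusted p = 0.0174).

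Over both genotypes, 4 of the 8 genes (Plaur, Plau, Thbs1 and Procr) rose with IR and none fell (limma), where 2.34% of all tested genes rose and 3.49% changed in either direction. The 8 genes were chosen with earlier results of these data known, so this share and those below may partly restate that choice. In the same 4 genes IR and non-IR libraries did not overlap, as was the case with IR higher in 2.23% of all tested genes. Within C57BL/6J hearts 2 of the 8 (Plaur and Plau) rose, against 0.407% of all tested genes that rose and 0.459% that changed. The same 2 rose within Slit2-Tg hearts, against 0.446% that rose and 0.525% that changed. At an unadjusted p under 0.05 stood 5 of the 8 genes in each of these comparisons (limma), Plat being the fifth, beside 15.9% of all tested genes over both genotypes, 8.96% in C57BL/6J and 11.2% in Slit2-Tg hearts. All 8 estimates were above 0 in both genotypes, with a median of 0.74 in C57BL/6J and 0.78 in Slit2-Tg hearts on the log2 scale, beside medians of 0.00 and 0.01 over all tested genes. The calls over both genotypes were 4 when Slit2-IR replicate 1 was left out and 6 when C57-IR replicate 1 was left out, the added genes being Plat and Thbd. The same 4 genes passed when each library was scaled to an equal sum of endothelial markers, an alternative added after the data were seen. That scaling moved the median effect of all tested genes only from 0.00 to -0.02, so it could change these group effects little. Within a genotype the calls depended on single libraries. In C57BL/6J hearts the count rose to 5 without C57-IR replicate 1 and was 0 without any other of the 6 C57BL/6J libraries. In Slit2-Tg hearts it rose to 4 without C57-IR replicate 1 or 2, and was 0 without Slit2-IR replicate 1 or 2 or any Slit2-non-IR library (limma). In each of these cases at least 4 members stood at an unadjusted p under 0.05 (limma). The matching share of all tested genes was not counted for these fits, so this does not offset the lost calls.

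**Figure D2:**
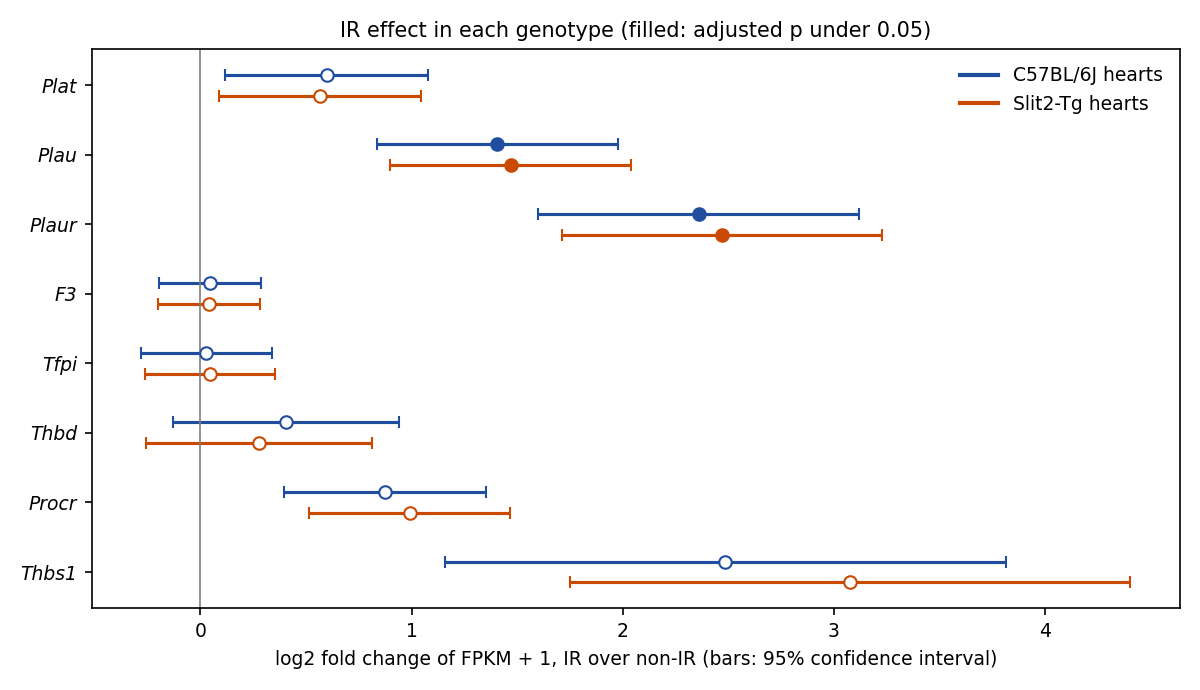
IR effect on each gene in C57BL/6J and Slit2-Tg hearts as log2 fold change of FPKM + 1, with the 95% confidence interval (limma, 3 against 3 libraries). Plau and Plaur are filled in both genotypes because their adjusted p was under 0.05, and the estimates for F3 and Tfpi sit at 0.03 to 0.05.

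The IR libraries differed among themselves in the same direction for most members. C57-IR replicate 1 was the lowest of its 3 for 6 of the 8 genes (Plat, Plau, Plaur, Thbd, Procr and Thbs1), and C57-IR replicate 2 the highest for 7, all but Tfpi. Plaur, for example, was 3.81 times the mean non-IR level of its genotype in C57-IR replicate 1, 12.5 times in replicate 2 and 8.79 times in replicate 3, and Thbs1 was 2.47, 9.77 and 8.78 times. C57-IR replicate 1 also had the lowest endothelial (229 FPKM) and lung epithelium (0.0582 FPKM) marker sums of all libraries, and adipocyte markers were low in it (0.0916 FPKM) and higher in C57-IR replicates 2 and 3 (11.5 and 14.9 FPKM). Part of this was not particular to it. Lung sums were also low in replicate 1 of C57-non-IR (0.0597 FPKM) and Slit2-non-IR hearts (0.0980 FPKM), in Slit2-non-IR replicate 3 and in all Slit2-IR libraries. Endothelial sums were low in replicate 1 of Slit2-non-IR (236 FPKM) and Slit2-IR hearts (238 FPKM), but not of C57-non-IR hearts (374 FPKM). The part of the adipocyte and lung markers in the levels of the 8 genes was not tested. When values were scaled to equal endothelial markers, the C57BL/6J effects were 2.37 for Plaur, 1.43 for Plau and 2.51 for Thbs1, against 2.36, 1.41 and 2.48 as deposited, though that sum includes Cldn5, which was itself higher in C57-IR replicates 2 and 3. In this comparison the scaling moved the median effect of all tested genes only from 0.00 to 0.03. It could thus change these group effects little, and the spread among the C57-IR libraries was not tested with it. Among the non-IR libraries, Slit2-non-IR replicate 1 was the lowest of its 3 for 7 genes, all but Tfpi.

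**Figure D3:**
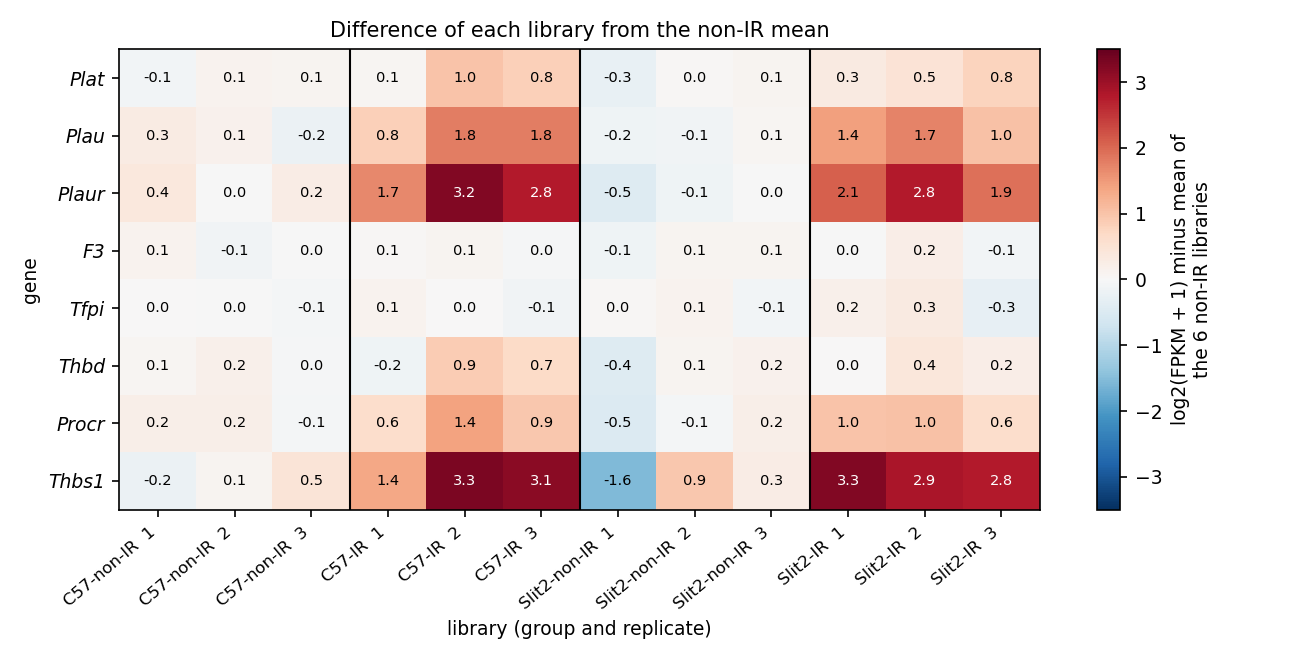
Log2(FPKM + 1) of each gene in each of the 12 libraries minus its mean over the 6 non-IR libraries, printed in each cell and coloured from blue (lower) to red (higher). The rows of Plaur and Thbs1 reach 3.2 and 3.3 in C57-IR replicate 2, C57-IR replicate 1 is paler than the other C57-IR libraries, and the rows of F3 and Tfpi stay near 0.

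After the group means were subtracted, the deviations of Plat and Thbd over the 12 libraries correlated at r = 0.90, those of Plau and Plaur at 0.86 and those of Plaur and Thbd at 0.84, while Plat and F3 stood at -0.04 and Thbs1 and Tfpi at -0.07. These are descriptions over 12 libraries that share depth and tissue composition. The genes whose log2 levels were most like each member over all 12 libraries (Pearson's r, mean of at least 1 FPKM) differed by member, and r there includes the gap between IR and non-IR hearts. For Plaur they were Rnd1 (0.99), Actg1 (0.99) and Tnfsf9 (0.99), and for Plau they were Actg1 (0.98), Spty2d1 (0.98) and Sdc4 (0.98). Procr was most like Irf1 (0.98), Gadd45b (0.97) and Eif1a (0.97), and Thbs1 most like Socs3 (0.97), Maff (0.97) and Rgs16 (0.97). Tm4sf1 (0.97), Ppp1r2 (0.97) and Emp1 (0.96) came closest to Plat, and Nov (0.96), Tmod3 (0.95) and Srgn (0.95) to Thbd. The closest genes had lower values for F3, with Epc1 (0.86), Thnsl2 (0.83) and Bicra (0.79), and for Tfpi, with Hsbp1l1 (0.91), Rabgap1l (0.88) and Phkg1 (0.88).

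The study asked whether Slit2 overexpression changes the heart's response to IR, and for these 8 genes no difference between genotypes passed the test. Few of all tested genes passed either, so 0 of 8 would be the usual outcome for any 8 genes. These counts are thus not a result about the members. In hearts without IR, 0 of the 8 differed between Slit2-Tg and C57BL/6J (limma, 0 also at an unadjusted p under 0.05), where 0.0394% of all tested genes did (3.19% unadjusted). In a fit of only these 6 libraries Plaur, at -0.40, stood at an unadjusted p under 0.05 (limma, adjusted p = 0.997). After IR, 0 of the 8 differed (0 at an unadjusted p under 0.05), against 0.0459% of all tested genes (3.16% unadjusted), and the mean genotype difference over both treatments gave 0 of 8 (0 unadjusted) against 0.131% (4.13% unadjusted). The largest estimates were -0.40 for Plaur without IR (95% confidence interval from -1.16 to 0.36) and 0.35 for Thbs1 after IR (from -0.97 to 1.68). Plaur was lower in Slit2-Tg hearts under both conditions, by -0.35 on average (from -0.88 to 0.19, limma, adjusted p = 0.999), which is smaller than its interval. The interaction of genotype and IR, the test of whether the IR effect itself differed, gave 0 of 8 calls (0 unadjusted) and 0% of all tested genes (1.86% unadjusted), with its largest estimate at 0.59 for Thbs1 (from -1.29 to 2.47). The intervals were narrow for F3 (from -0.35 to 0.34) in the interaction and wide for Thbs1. C57-IR replicate 1 weighed on this comparison. It was the lowest C57-IR library for Plat, Plaur, Thbd and Thbs1, so leaving it out lowers their genotype estimates. Without it the estimates for Slit2-IR against C57-IR were -0.74 for Plaur, -0.57 for Thbd and -0.39 for Plat, all at an unadjusted p under 0.05 and none past adjustment (limma, adjusted p = 0.932 for each). The estimate for Thbs1 turned to -0.27. The mean difference over both treatments was then -0.57 for Plaur, -0.35 for Thbd and -0.23 for Plat. These again stood at an unadjusted p under 0.05 and not past adjustment (limma, adjusted p = 0.587, 0.672 and 0.726). The matching share of all tested genes at an unadjusted p under 0.05 was not counted without this library, so these members have no background beside them.

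**Figure D4:**
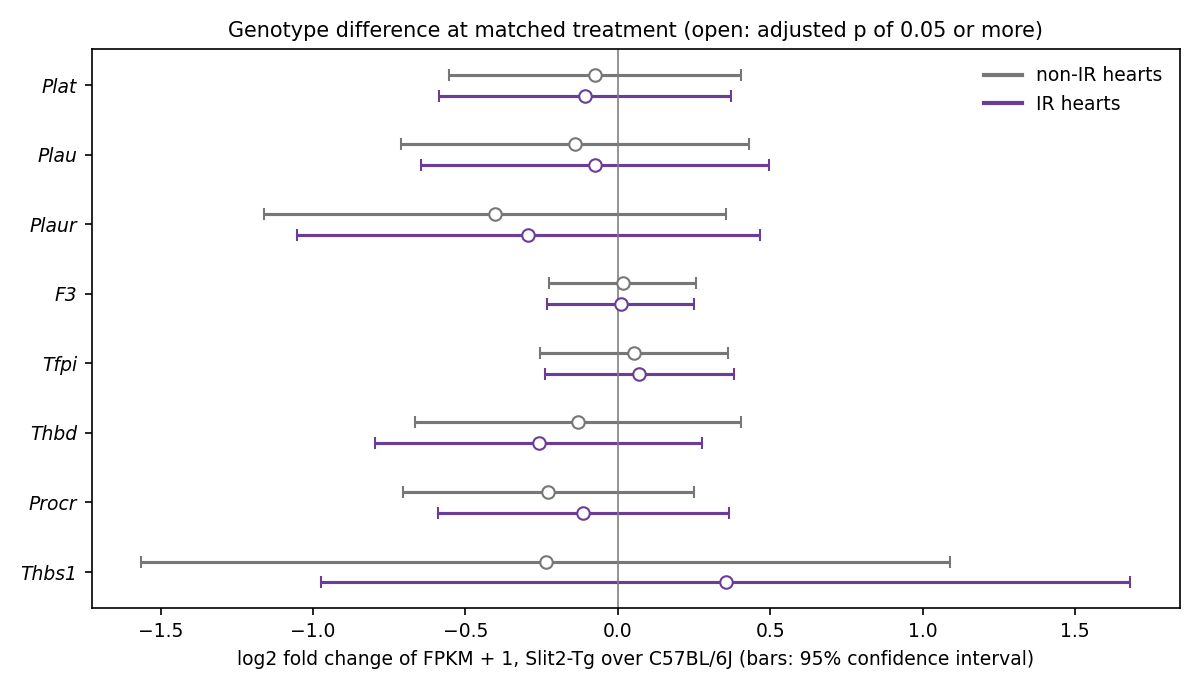
Level of each gene in Slit2-Tg relative to C57BL/6J hearts at matched treatment, as log2 fold change of FPKM + 1 with the 95% confidence interval (limma, 3 against 3 libraries). Every interval includes 0, from the narrow ones of F3 to those of Thbs1, which run from -1.56 to 1.09 without IR and from -0.97 to 1.68 after IR.

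The wider pathway was read from 6 lists of 57 further genes, of which 35 were expressed highly enough to test. Over both genotypes 2 of the 35 (F2r and Ptgs2) rose with IR and none fell (2.34% of all tested genes rose), and within a single genotype none passed (limma, 5 of 35 at an unadjusted p under 0.05 in each, beside 8.96% of all tested genes in C57BL/6J and 11.2% in Slit2-Tg hearts). At an unadjusted p under 0.05 over both genotypes, 9 of the 35 were higher and 1 lower (limma). Of all tested genes 7.93% were higher and 7.97% lower. The median effect over the 35 genes was 0.14 (log2), beside 0.76 for the 8 members and 0.00 for all tested genes. Members and lists were chosen with earlier results of these data known, so the gap between these medians is a description and no test. Of the 13 listed genes of the plasminogen system, 9 were tested and none of these passed. The most abundant was Serping1, which encodes the C1 inhibitor, at a mean of 46.3 FPKM and an IR effect of 0.14 (log2, limma, adjusted p = 0.730). Lrp1, an endocytic receptor that clears plasminogen activators bound to their inhibitors, was the only one at an unadjusted p under 0.05, with an effect of 0.30 (limma, adjusted p = 0.231). Plasminogen itself (Plg), which the liver makes, was listed at 0 in all libraries but Slit2-IR replicate 3 and was not tested.

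Among thrombin and protease-activated receptors 1 of 3 tested genes rose. F2r, the main thrombin receptor of the vessel wall, measured 11.3, 14.3 and 12.4 FPKM in C57-non-IR, 13.998, 20.4 and 18.8 FPKM in C57-IR, 9.44, 12.5 and 15.5 FPKM in Slit2-non-IR and 23.5, 20.9 and 19.9 FPKM in Slit2-IR hearts. The C57BL/6J groups overlapped and the Slit2-Tg groups did not, as was the case with IR higher in 8.65% of all tested genes. The mean effect was 0.60 ± 0.12 (log2, SE, limma, adjusted p = 0.0234). This call was lost in 9 of the 19 alternatives (limma, adjusted p from 0.0507 to 0.149), namely with no filter, with endothelial scaling and on leaving out Slit2-IR replicate 1 or 2, C57-IR replicate 2 or 3, replicate 1 or 3 of C57-non-IR, or replicate 2 of Slit2-non-IR. Among 6 genes of endothelial platelet inhibition, 1 rose. Ptgs2, the inducible cyclooxygenase, measured 2.15, 4.06 and 2.04 FPKM in C57-non-IR, 5.59, 13.9 and 11.4 FPKM in C57-IR, 1.93, 2.91 and 6.25 FPKM in Slit2-non-IR and 15.8, 9.26 and 9.70 FPKM in Slit2-IR hearts. Groups did not overlap within either genotype. With IR higher, this was so in 6.75% of all tested genes in C57BL/6J and 8.65% in Slit2-Tg hearts. The mean effect was 1.52 ± 0.27 (log2, SE, limma, adjusted p = 0.0104).

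None of the listed genes passed in the 3 remaining lists. At an unadjusted p under 0.05 over both genotypes, 3 of 6 tested natural anticoagulants were higher and 0 lower (limma). Among coagulation factors and fibrinogen 0 of 5 stood there, and among von Willebrand factor and thrombospondins 1 of 6, higher. Of all tested genes 7.93% were higher. Of natural anticoagulants 6 of 9 were tested, the most abundant being Gas6 at a mean of 69.0 FPKM and an IR effect of 0.03. Tfpi2, a relative of Tfpi, had an effect of 0.57 (limma, adjusted p = 0.0582). Of coagulation factors and fibrinogen 5 of 18 were tested, led by the transglutaminase Tgm2 at 55.3 FPKM with an effect of -0.09. The clotting factors made by the liver, such as F2 at a mean of 0.00441 FPKM, were too low to test. Of von Willebrand factor and thrombospondins 6 of 7 were tested, led by Cd36, a receptor for thrombospondin-1, at 423 FPKM with an effect of -0.04.

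**Figure D5:**
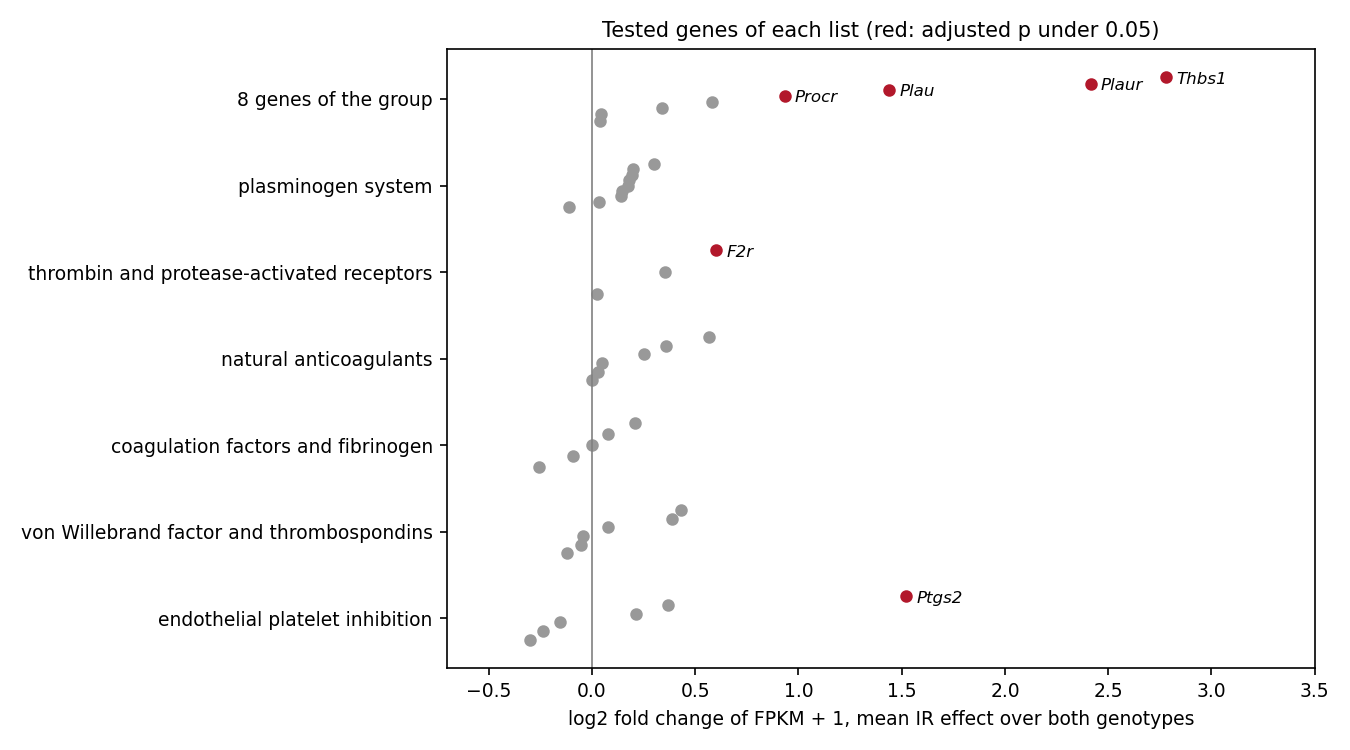
Mean IR effect over both genotypes, as log2 fold change of FPKM + 1, for each tested gene of the group and of the 6 pathway lists, with genes at an adjusted p under 0.05 in red and named. The red points are Thbs1, Plaur, Plau and Procr of the group, then Ptgs2 and F2r, and most other genes sit near 0.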

How the data were processed

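NEBNext Ultra libraries of total RNA from 12 perfused hearts were sequenced with paired ends (Illumina HiSeq). The submitters' processing notes name HISAT2 and mm10, and the counting tool, its strand setting and the annotation release are not given in the sources used here. The authors deposited FPKM per gene and library, with GRCm38 coordinates. FPKM times gene length was a whole multiple of 1 read's worth (tolerance 0.05 reads) for 100% of 249546 values, and these steps followed median-of-ratios size factors, so the libraries had been scaled together and reads could be recovered. There were 0 per-library columns left unused.

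FPKM is not a count, so limma with a variance trend was run on log2(FPKM + 1), with the 4 groups in 1 fit and no covariate. The 15240 genes tested had, in 3 or more libraries, what 10 reads amount to in the median library, and 15 or more reads altogether. Fold changes on this scale understate those of low genes. P-values were adjusted by Benjamini-Hochberg across the whole set of tested genes, with a threshold of 0.05. The F3 to Tfpi level ratio was tested by two-sided exact permutation within genotype, whose smallest p-value is 0.005. Another level ratio and 1 gene of the lists are not reported here. Contrasts between single groups rest on 3 against 3 libraries.

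The members and lists were chosen with earlier results of these data known. All members were named, with every list gene past the threshold in any contrast, the most abundant gene of each list without one, and the 3 genes most like each member. Plg, Lrp1, F2 and Tfpi2 were named after their values were seen. Same-numbered libraries were checked for shared deviations from group means. In Slit2-IR with Slit2-non-IR the 3 correlations ran from 0.143 to 0.294, and in Slit2-IR with C57-IR from 0.154 to 0.362, which counts as pairing, while the other comparisons had a pair under 0.1. For Slit2-IR with either of these groups, 6 of 6 libraries correlated best with their own number. The main fit did not use this pairing, and the replicate block is given as an alternative. The alternatives were the replicate block, TMM scaling, limma-voom on recovered reads, a pseudocount of 0.1, dropping the filter (1 read sufficed), requiring 10 reads in each library, fitting the 6 compared libraries alone, leaving out each library and, added after the data were seen, scaling to equal endothelial markers. On simulated reads for C57-IR against C57-non-IR (15240 genes, 200 changed 4-fold) the fit recovered 185 with 9 false calls. The changed genes were drawn from those with more reads, and no deviation shared between genes of a library was simulated. Every C57-IR library was given the same fold, and the simulated spread of a gene was held under an upper limit. The simulation therefore does not speak for smaller changes, for genes with few reads or for genes whose change varies widely between libraries. Motifs were searched in RefSeq promoter windows. The software was Python 3.11.15 (numpy 2.4.6, pandas 2.3.3, matplotlib 3.10.9) and limma 3.58.1 under R 4.3.3.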

Additional observations from a re-analysis of the deposited data

How the results depend on the processing

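The counts of members called for IR over both genotypes (4) stayed between 4 and 6 under all 19 alternatives, and those for the genotype contrasts and the interaction stayed at 0 (limma). Within C57BL/6J hearts the count of 2 became 0 with no filter beyond 1 read, 0 in a fit of only the 6 libraries compared, 1 with TMM scaling, 1 with limma-voom and 0 to 5 without 1 library. Within Slit2-Tg hearts the count of 2 became 0 with no filter and 0 to 4 without 1 library. In these cases 4 to 6 members stood at an unadjusted p under 0.05, beside 5 as reported. The matching share of all tested genes was not counted for these fits. The cause of the changed counts was not tested. With the replicate block the counts were 3 in C57BL/6J hearts, 3 in Slit2-Tg hearts (each with Thbs1 added) and 5 over both genotypes (with Plat added). Same-numbered C57BL/6J libraries correlated at 0.295, 0.126 and 0.083 in their deviations, and 2 of 6 of them correlated best with their own number. The block left the genotype and interaction counts at 0. The F3 to Tfpi ratio ran from -0.051 to 0.061 without 1 library. Among IR effects, signs turned for F3 and Tfpi. Scaled to equal endothelial markers, the effect in Slit2-Tg hearts was -0.063 for F3 and -0.061 for Tfpi. Without 1 library, F3 ran from -0.011 to 0.11 in C57BL/6J, from -0.054 to 0.11 in Slit2-Tg and from -0.0039 to 0.076 over both, and Tfpi from -0.026 to 0.10, from -0.076 to 0.23 and from -0.024 to 0.13. The Thbs1 genotype difference after IR ran from -0.27 to 0.70 and its interaction from -0.13 to 1.12. Over all tested genes, calls ranged without 1 library from 3 to 254 in C57BL/6J (70 as reported), from 4 to 180 in Slit2-Tg (80) and from 329 to 713 over both (532). With no filter they were 7, 19 and 299, with the block 174, 202 and 773, with endothelial scaling 115, 91 and 326, with limma-voom 32, 121 and 590, and in fits of 6 libraries 9 and 60. The genotype calls without IR (6) were 11 with no filter, 10 with a pseudocount of 0.1, 3 with 10 reads in every library, 2 with the block and 1 to 14 without 1 library. Those after IR (7) were 3 with 10 reads in every library, 4 in a fit of 6 libraries and 4 to 12 without 1 library, and the mean genotype calls (20) were 8 with 10 reads in every library and 12 to 30 without 1 library. The interaction (0) gave 4 with no filter and 0 to 1 without 1 library. Endothelial scaling shifted the median of all genes by 0.13 in Slit2-non-IR against C57-non-IR and moved the share of calls that were higher from 66.9% to 82.2% for IR over both genotypes, from 71.4% to 100% for Slit2-IR against C57-IR and from 75% to 95.2% for the mean genotype difference. Depth limits Procr most, at 11 to 148 reads.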
